A study of Rattus norvegicus with 9 samples.

Results

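Rats with an occluded middle cerebral artery that were injected with nicotinamide mononucleotide (NMN) were compared with rats that had the occlusion without NMN, across all brain genes that the RNA sequencing table measured well enough to test. The comparison held 6 libraries, 3 labelled IR+NMN and 3 labelled IR. Rows of the table that shared a gene symbol were summed, rows with a blank or a dash for a symbol were dropped, and a gene was kept where it reached 1 TPM (scaled by transcript length so that each library sums to 1000000) in at least 3 of these 6 libraries. That left 9967 of the 12609 symbols in the table. IR+NMN rats had MCAO, the surgical occlusion of the middle cerebral artery used as a model of stroke, and received NMN at 100 mg/kg in saline. IR rats had MCAO and carried PBS, phosphate-buffered saline, as their treatment label. Sham rats, 3 libraries, had the surgery without the occlusion and also carried PBS, and their values are given as a baseline. The tissue was labelled rat brain in all 9 libraries. Not given in the sources used here are the strain, sex and age, the brain region, the time after the occlusion and when and how often NMN was injected. Nor do the labels name an animal for each library, so the p-values set differences against the spread among libraries, and part of that spread may be technical.

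NMN is taken up by cells and converted to NAD, the coenzyme of redox metabolism that is also consumed by PARP enzymes, sirtuins and the ectoenzyme CD38. Loss of blood flow followed by reperfusion kills neurons and sets off a response of the surrounding cells. Microglia leave their resting state and turn phagocytic, leukocytes enter from the blood, and astrocytes become reactive and build a border around the lesion. The series' title speaks of less apoptosis and less formation of neutrophil extracellular traps after NMN.

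The tissue label was checked against its markers, and neuronal and myelin transcripts were abundant in every library. The pan-neuronal gene Snap25 was at 1254 to 1409 TPM in IR+NMN and 1242 to 2116 TPM in IR, and the myelin gene Mbp at 1963 to 5108 TPM in IR+NMN and 2291 to 4459 TPM in IR. Between 9918 and 9998 genes reached 1 TPM in the IR+NMN libraries and between 9741 and 9877 in the IR libraries. TPM keeps no depth, so no counting interval can be given. The groups were not cleanly apart, and IR+NMN 2 was most like IR 1 (Spearman correlation across genes 0.985) and not another IR+NMN library. Ribosomal protein genes took 11.6%, 7.39% and 7.5% of the TPM in IR+NMN 1 to 3, against 5.96%, 8.69% and 8.38% in IR 1 to 3, and the part of that share in the results was tested only as a covariate.

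After NMN, some genes of activated phagocytes, reactive astrocytes, DNA replication and the actin cytoskeleton were higher than after the occlusion without NMN, and few genes were lower. With limma on log2(TPM + 1) and an adjusted p threshold of 0.05, 239 genes were higher in IR+NMN (2.4% of those tested) and 6 were lower (0.0602%). The rise was at least 2-fold in 148 genes and at least 4-fold in 37, and the fall at least 2-fold in 3 genes. The median log2 change was 1.15 over the genes called higher and 0.04 over all genes tested. At an unadjusted p under 0.05 there were 1087 genes higher (10.9%) and 254 lower (2.55%). The 3 IR+NMN libraries all lay above the 3 IR libraries in 1367 genes (13.7%) and all below in 321 (3.22%). The change was positive in 58.0% of all genes tested. These shares over all genes are the background for the list counts below. By its calls, a short list without a called gene does not stand apart from them.

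**Figure D1:**
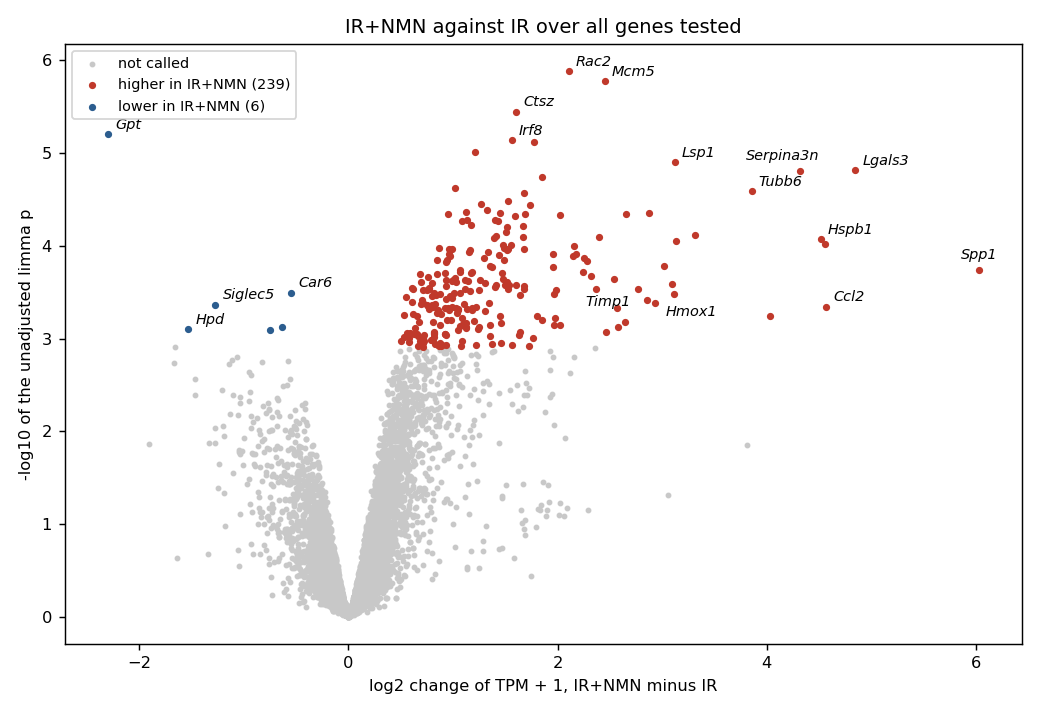
Each point is 1 of the 9967 genes tested, with the log2 change of TPM + 1 (IR+NMN minus IR) on the horizontal axis and -log10 of the unadjusted limma p on the vertical axis. The 239 genes called higher reach a log2 change of 6.03 (Spp1), and the largest of the 6 falls is -2.30 (Gpt).

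These calls rested on how the spread was estimated and on which libraries entered. The fit took its spread from all 9 libraries, with 6 residual degrees of freedom. When only the 6 IR+NMN and IR libraries were fitted, 1 gene was higher (Il12rb1, a gene outside the 239) and 1 was lower (Gpt), and the adjusted p of the 245 called genes ran up to 0.144. Without IR+NMN 1, IR+NMN 3, IR 2 or IR 3 the count was 0 in each case, at smallest adjusted p-values of 0.0532, 0.083, 0.094 and 0.0611, while 1313, 918, 1003 and 915 genes had an unadjusted p under 0.05. Without IR+NMN 2 the counts were 365 higher and 128 lower, without IR 1 they were 290 and 10, and without both libraries 431 and 111. Without Sham 1, 2 or 3 the genes called higher numbered 133, 101 and 203. Each of the 239 genes kept a positive change and an unadjusted p under 0.05 in all 9 fits that left out a library and in the fit to 6 libraries. In all 239 every IR+NMN library lay above every IR library, so the sign could not turn in such fits. They were also chosen by their p in these same libraries, so the kept p is a description and no separate test. No gene stayed past the adjusted threshold in all 9 of these fits, and the most that any called gene passed was 5.

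**Figure D2:**
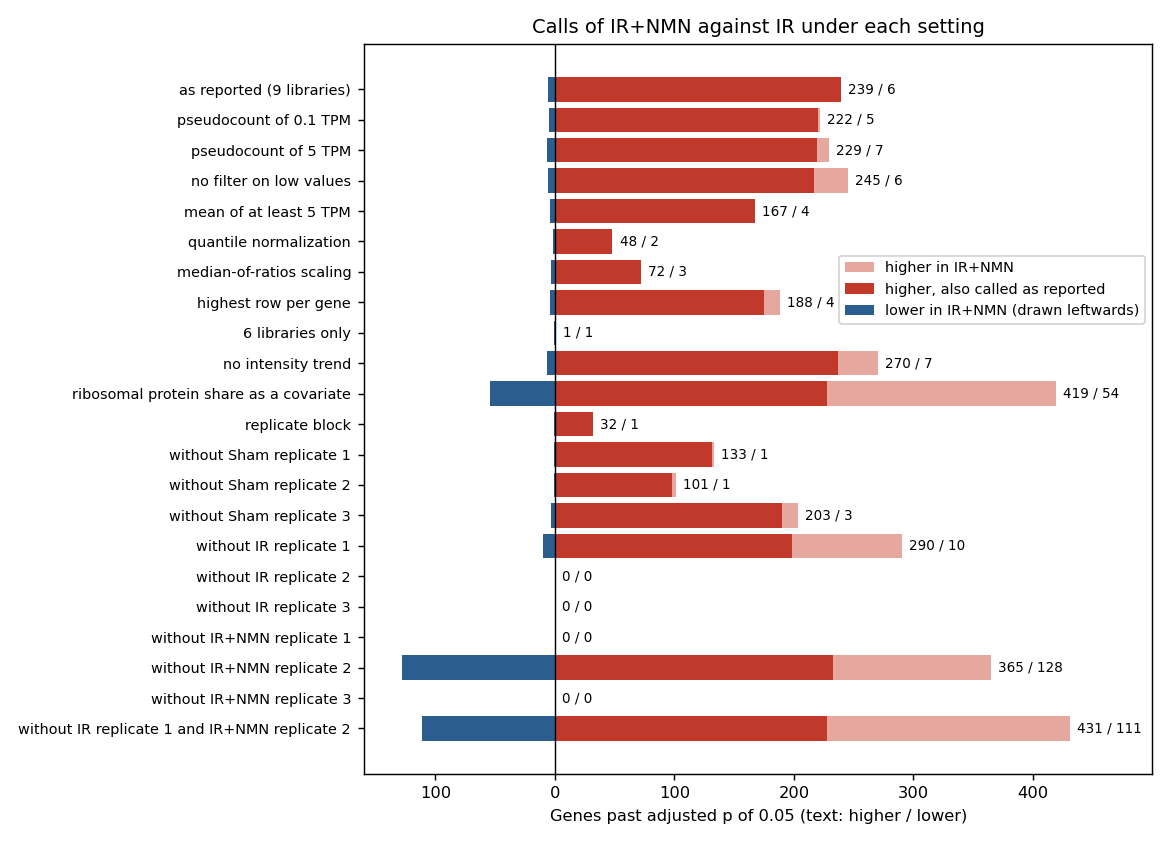
Bars to the right count genes called higher in IR+NMN under each setting of the analysis, with those also among the 239 in the darker shade, and bars to the left count genes called lower. Without IR+NMN replicate 2 the counts are 365 and 128, and 4 of the 9 settings that leave out a library give 0 and 0.

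The 12 genes with the largest rises differ in what they encode. Spp1, the secreted phosphoprotein osteopontin, was at 613, 24.8 and 308 TPM in IR+NMN 1, 2 and 3, against 3.68, 0.979 and 0.888 TPM in IR 1, 2 and 3 (log2 change 6.03, SE 0.99, adjusted p = 0.0243 by limma). Every IR+NMN library lay above every IR library, and IR+NMN 2 was the lowest of its group by a wide margin. Lgals3, the lectin galectin-3 of activated phagocytes, was at 185, 28.8 and 103 TPM in IR+NMN, against 2.15, 2.32 and 1.32 TPM in IR (4.85, SE 0.58, adjusted p = 0.0154). Hspb1, a small heat shock protein that binds unfolding proteins and actin, was at 830, 221 and 600 TPM in IR+NMN, against 50.05, 19.6 and 7.80 TPM in IR (4.52, SE 0.67, adjusted p = 0.021). In IR the same gene was highest in IR 1, and it was at 3.67 to 8.72 TPM in Sham. Lcn2, a siderophore-binding protein of the acute phase, was at 86.6, 17.0 and 139 TPM in IR+NMN, against 2.66, 2.04 and 0.525 TPM in IR (4.55, SE 0.69, adjusted p = 0.021).

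Ccl2, which attracts monocytes, was at 98.4, 5.34 and 50.2 TPM in IR+NMN, against 1.24, 0.0779 and 0 TPM in IR (4.57, SE 0.85, adjusted p = 0.0299). Serpina3n, a secreted serine protease inhibitor, was at 39.4, 10.3 and 61.6 TPM in IR+NMN, against 0.661, 0.495 and 0.452 TPM in IR (4.32, SE 0.51, adjusted p = 0.0154). A row of the table for Serpina3n was near 0 in all libraries of one group and present in all of the other, so the split of its reads among rows is uncertain. The values given are sums over its rows, and a shift of reads to or from rows without its symbol was not tested. H19, an imprinted non-coding RNA that is low in adult tissue, was at 62.9, 4.23 and 46.0 TPM in IR+NMN, against 0.864, 0.359 and 0.408 TPM in IR (4.04, SE 0.78, adjusted p = 0.0331). The tubulin genes Tubb6 (105, 28.3 and 104 TPM in IR+NMN, against 5.91, 3.80 and 2.24 TPM in IR) and Tuba1c (124, 39.1 and 94.7 TPM, against 13.8, 7.11 and 4.85 TPM) rose by 3.86 and 3.14 on the log2 scale. They were 2 of 13 tubulin genes tested, and the median change of that list was -0.05. Tuba8 was at 37.3 to 40.1 TPM in IR+NMN, against 52.6 to 86.4 TPM in IR, and was not called. Reads of near-identical tubulin genes may have been divided among them by the authors' processing, so their single values are uncertain.

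Msr1, the scavenger receptor of macrophages, was at 18.6, 3.57 and 17.3 TPM in IR+NMN and did not exceed 0.263 TPM in IR (3.32, SE 0.48, adjusted p = 0.021). Lsp1, an actin-binding protein of leukocytes, was at 44.7, 14.0 and 37.8 TPM in IR+NMN, against 3.02, 2.21 and 2.15 TPM in IR (3.12, SE 0.36, adjusted p = 0.0154). Cox6a2, the heart and muscle form of a cytochrome c oxidase subunit, was at 22.7, 6.08 and 18.4 TPM in IR+NMN, against 0, 1.35 and 1.13 TPM in IR (3.12, SE 0.55, adjusted p = 0.0259). In each of these 12 genes IR+NMN 2 was the lowest of the IR+NMN libraries and still lay above all IR libraries. The 12 were chosen among called genes whose groups did not overlap, so the latter follows from the choice.

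**Figure D3:**
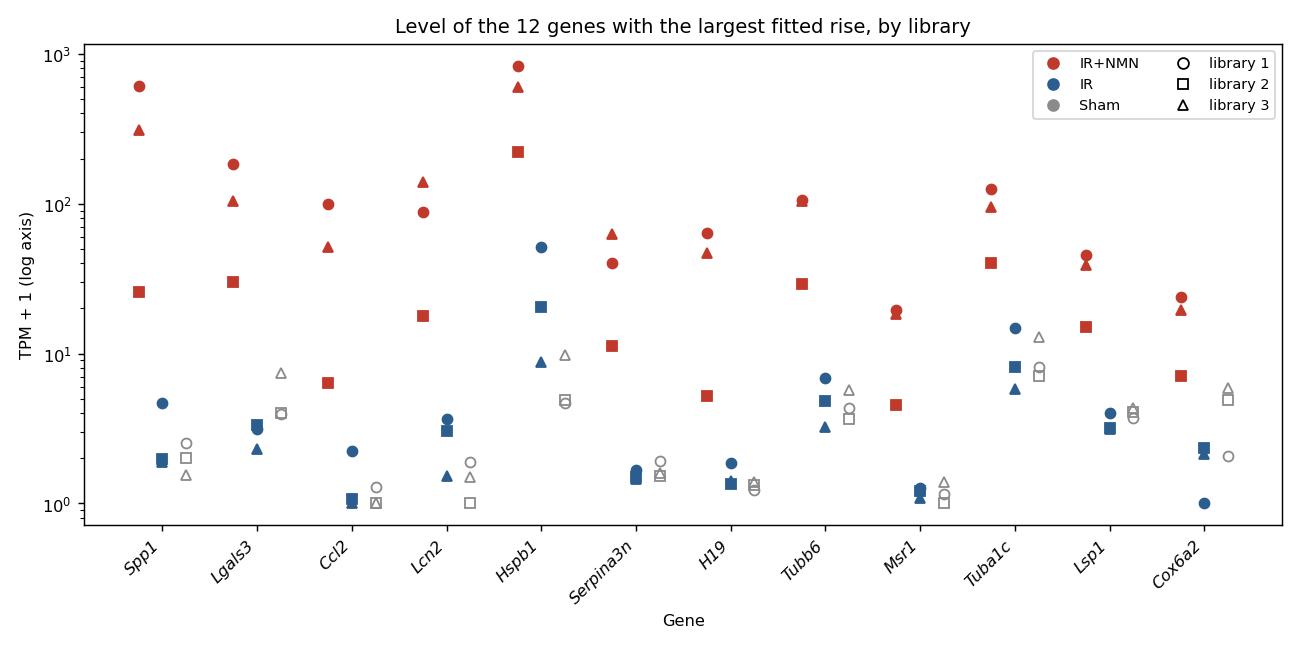
Points give TPM + 1 on a log axis in each of the 9 libraries for the 12 genes with the largest fitted rise, IR+NMN in red, IR in blue and Sham as open grey symbols, with the library number as the shape. All 3 IR+NMN points lie above all 3 IR points in each gene, which was a condition for choosing these genes. The IR+NMN 2 square is the lowest of the red points.

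Most tested genes for the machinery of phagocytes were higher after NMN. Of 21 listed genes for phagocyte integrins, Fc receptors and the NADPH oxidase, 18 were tested, 11 rose and 0 fell, with a median log2 change of 1.46. Rac2, the small GTPase that assembles the oxidase in blood and microglial phagocytes, had the smallest p of all genes. It was at 23.4, 14.9 and 21.2 TPM in IR+NMN, against 4.56, 3.51 and 3.32 TPM in IR (2.10, SE 0.19, adjusted p = 0.00836), with Sham at 3.90 to 4.90 TPM. Itgb2, the shared beta subunit of leukocyte integrins, was at 16.8, 11.02 and 17.8 TPM in IR+NMN, against 5.23, 3.29 and 3.62 TPM in IR (1.68, SE 0.21). Its partners Itgal (2.48 to 3.97 TPM in IR+NMN, against 0.219 to 0.845 TPM in IR) and Itgam (17.8 to 26.2 TPM, against 2.52 to 8.10 TPM), the alpha subunits of LFA-1 and Mac-1, rose by 1.53 and 2.14. The oxidase subunit gene Ncf4 was at 17.6, 5.91 and 13.4 TPM in IR+NMN, against 2.58, 1.34 and 1.38 TPM in IR (2.18, SE 0.34). The remaining risers were the Fc receptors Fcgr3a, Fcgr2b and Fcgr1a, the hyaluronan receptor Cd44, the oxidase subunit Cyba and the endotoxin co-receptor Cd14.

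Of 22 listed genes that mark lipid-laden phagocytes, 21 were tested and 6 rose, with a median of 0.94. Beside Spp1, Lgals3, Msr1 and the intermediate filament gene Vim, they were the tetraspanin Cd9 and the lipid droplet coat protein Plin2, which was at 33.7, 14.3 and 30.1 TPM in IR+NMN, against 8.64, 7.59 and 8.83 TPM in IR (1.45, SE 0.28, adjusted p = 0.0331). Apoe, the carrier of cholesterol between brain cells, was not called, at 2044, 2863 and 2015 TPM in IR+NMN, against 2886, 3074 and 3827 TPM in IR. Ctsz, a lysosomal cysteine protease, was at 106, 78.0 and 102 TPM in IR+NMN, against 36.4, 29.5 and 26.4 TPM in IR (1.60, SE 0.16, adjusted p = 0.0119). It was the 1 riser among 27 lysosomal genes tested, whose median was 0.03. Cathepsin B, Ctsb, was at 411 to 432 TPM in IR+NMN, against 267 to 369 TPM in IR.

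Of the genes of resting microglia, 1 fell. Of 19 listed markers 16 were tested, 0 rose and 1 fell, with a median of -0.38. In 7 of the 16 all IR+NMN libraries lay below all IR libraries, against 3.22% of all genes. Siglec5, a sialic acid receptor, was at 0.276, 0.732 and 0.0928 TPM in IR+NMN, against 1.41, 2.67 and 2.85 TPM in IR (-1.27, SE 0.24, adjusted p = 0.0295). The purine receptor P2ry12, by which resting microglia sense ATP, was at 6.38, 13.1 and 7.48 TPM in IR+NMN, against 14.5, 23.4 and 24.1 TPM in IR, and 33.3 to 36.4 TPM in Sham. Its adjusted p was 0.0642, and that of the microglial membrane protein Tmem119 was 0.0737, at 8.68 to 14.5 TPM in IR+NMN and 17.1 to 30.0 TPM in IR. Summed over the 17 markers in the table, tested or not, the level was 779, 923 and 685 TPM in IR+NMN, against 838, 892 and 902 TPM in IR, so the groups overlapped. In bulk tissue, fewer cells of a type and less RNA per cell cannot be told apart.

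Cd68, a glycoprotein of macrophages and activated microglia, was at 3.29, 2.19 and 3.15 TPM in IR+NMN, against 1.36, 0.943 and 0.773 TPM in IR (adjusted p = 0.0546). Of 17 listed markers of macrophages 5 were tested, and Msr1 alone rose. The summed level of the 9 in the table was 70.2 to 140 TPM in IR+NMN and 45.4 to 85.1 TPM in IR. Of 17 listed neutrophil markers 2 were tested, S100a9 (3.45 to 7.58 TPM in IR+NMN, 3.62 to 5.47 TPM in IR) and the gelatinase Mmp9 (1.06 to 2.55 TPM in IR+NMN, 0.637 to 3.15 TPM in IR), and the groups overlapped in both. Of 17 listed lymphocyte markers 14 were in the table, summing to 7.88 to 40.4 TPM in IR+NMN and 10.03 to 16.3 TPM in IR. Of these 3 were tested, and limma called 0 of them, also at an unadjusted p under 0.05. The part of leukocyte entry in the phagocyte genes was not tested.

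Reactive astrocyte genes had the highest share of risers of any list with at least 5 tested genes. Of 27 listed genes 19 were tested and 12 rose, with a median of 1.71. In 16 of the 19 all IR+NMN libraries lay above all IR libraries, against 13.7% of all genes. The risers were Serpina3n, Cp, Aspg, Hspb1, Lcn2, Vim, Cd44, Tnc, Timp1, Cd14, Stat3 and Osmr. Most of them stood in other lists too. Cd44 and Cd14 were also in the phagocyte list, Vim in the lipid-laden phagocyte list and Hspb1 in the heat shock list. Stat3 and Osmr were also in the cytokine list, Tnc and Timp1 in the matrix list, Cp and Lcn2 in the heme and iron list, and Lcn2 in the trap list. Cp, the copper-carrying ferroxidase ceruloplasmin, was at 11.1, 9.75 and 13.1 TPM in IR+NMN, against 3.67, 3.12 and 1.86 TPM in IR (1.68, SE 0.23, adjusted p = 0.0181). Vim was at 132, 79.2 and 113 TPM in IR+NMN, against 31.2, 18.2 and 15.0 TPM in IR (2.32, SE 0.39, adjusted p = 0.025). Timp1, an inhibitor of matrix metalloproteinases, was at 100.1, 20.8 and 66.1 TPM in IR+NMN, against 9.28, 7.08 and 3.70 TPM in IR (2.85, SE 0.52, adjusted p = 0.0282). Stat3, the transcription factor that drives the reactive state of astrocytes, was at 55.2, 35.1 and 50 TPM in IR+NMN, against 27.9, 15.1 and 15.8 TPM in IR (1.24, SE 0.25, adjusted p = 0.0398). Gfap, the best known gene of this state, was at 4121, 4634 and 4315 TPM in IR+NMN, against 2645, 1336 and 666 TPM in IR. The groups did not overlap, but the IR libraries were far apart from each other, and the adjusted p was 0.095.

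None of the general astrocyte markers passed. Of 17 tested, Gfap among them, limma called 0, with 1 higher and 5 lower at an unadjusted p under 0.05 and a median of -0.49. Of the 17 changes 2 were positive, against 58.0% over all genes. Their summed level was 8389, 11710 and 8530 TPM in IR+NMN, against 9897, 7841 and 8540 TPM in IR, so the groups overlapped. Gjb6, the gap junction protein connexin 30, was at 15.99, 35.9 and 12.03 TPM in IR+NMN, against 49.6, 59.0 and 83.9 TPM in IR (adjusted p = 0.0501). S100b, a calcium-binding protein of astrocytes, was at 829, 1267 and 717 TPM in IR+NMN, against 1392, 1963 and 2005 TPM in IR (adjusted p = 0.0704). In both genes IR+NMN 2 was the highest of its group.

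Several cytokine signalling genes were higher after NMN. Of 29 listed cytokines, receptors and inflammasome genes 21 were tested, 5 rose and 0 fell, with a median of 0.91. Each of the 21 had a positive change, against 58.0% of all genes. Pycard, the adaptor of the inflammasome, was at 19.9, 10.4 and 14.2 TPM in IR+NMN, against 4.55, 4.64 and 4.24 TPM in IR (1.49, SE 0.24, adjusted p = 0.0216). Il18, a cytokine that the inflammasome matures, was at 16.0, 8.48 and 13.3 TPM in IR+NMN, against 5.03, 5.16 and 5.58 TPM in IR (1.08, SE 0.21, adjusted p = 0.0342). Socs3, a feedback inhibitor of STAT3, was at 21.1, 4.35 and 21.5 TPM in IR+NMN, against 2.32, 0.865 and 0.749 TPM in IR (2.65, SE 0.52, adjusted p = 0.0363). The oncostatin M receptor Osmr and Stat3 completed the 5. Il1b, Il6, Tnf and Cxcl1 did not pass the filter, and Tnf was at 1.44, 0.477 and 1.51 TPM in IR+NMN, against 0.360, 0.304 and 0.269 TPM in IR. Of 22 listed chemokines and their receptors 9 were tested, and Ccl2 alone rose. Cxcl16, a chemokine and scavenger of oxidised lipid, was at 33.1, 8.06 and 26.2 TPM in IR+NMN, against 6.25, 1.88 and 1.99 TPM in IR (adjusted p = 0.051). Of 12 NF-kB pathway genes tested limma called 0, with 6 higher and 1 lower at an unadjusted p under 0.05.

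Of 23 listed complement genes 19 were tested, 4 rose and 0 fell, with a median of 0.44. In 8 of the 19 all IR+NMN libraries lay above all IR libraries, against 13.7% of all genes. C1r and C1s, the proteases of the C1 complex, were at 14.1 to 16.6 and 9.80 to 12.7 TPM in IR+NMN, against 4.60 to 7.06 and 2.98 to 4.58 TPM in IR, and rose by 1.22 (SE 0.23) and 1.40 (SE 0.20). Their inhibitor Serping1 was at 19.6, 18.0 and 24.2 TPM in IR+NMN, against 6.93, 3.36 and 1.62 TPM in IR (2.25, SE 0.36, adjusted p = 0.0216). C3, at which the complement pathways meet, was at 20.1, 27.9 and 35.9 TPM in IR+NMN, against 7.72, 6.93 and 12.5 TPM in IR (1.53, SE 0.26, adjusted p = 0.025).

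Genes induced by interferon were higher after NMN in 6 cases. Of 30 listed 27 were tested, 26 had a positive change (58.0% over all genes) and 6 rose, with a median of 0.80. All IR+NMN libraries lay above all IR libraries in 22 of the 27, against 13.7% of all genes. Irf8, a transcription factor of microglia and macrophages, was at 38.8, 28.2 and 34.2 TPM in IR+NMN, against 13.4, 9.27 and 9.75 TPM in IR (1.56, SE 0.17, adjusted p = 0.0126). Bst2, which tethers virus particles to membranes, was at 75.7, 64.1 and 60.3 TPM in IR+NMN, against 27.7, 25.1 and 17.4 TPM in IR, and Sham was at 8.34 to 14.3 TPM. It rose by 1.49 (SE 0.23, adjusted p = 0.021). Oas1a, which senses double-stranded RNA, and the antiviral genes Rsad2 and Ifitm3 rose by 1.41, 1.68 and 1.76. Psmb8, a catalytic subunit of the immunoproteasome, was at 50.8, 31.5 and 37.0 TPM in IR+NMN, against 14.9, 12.1 and 8.41 TPM in IR (1.68, SE 0.26, adjusted p = 0.021). It was the 1 riser among 37 proteasome subunit genes, whose median was 0.07. Psmb9, the second immunoproteasome subunit, was at 32.0, 19.6 and 23.6 TPM in IR+NMN, against 11.9, 10.1 and 9.21 TPM in IR, and missed the threshold (adjusted p = 0.0568). Of 10 antigen presentation genes tested 1 rose, the class II peptide loader RT1-DMb, at 72.5, 41.5 and 52.0 TPM in IR+NMN, against 26.2, 23.7 and 25.9 TPM in IR (1.07, SE 0.19).

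**Figure D4:**
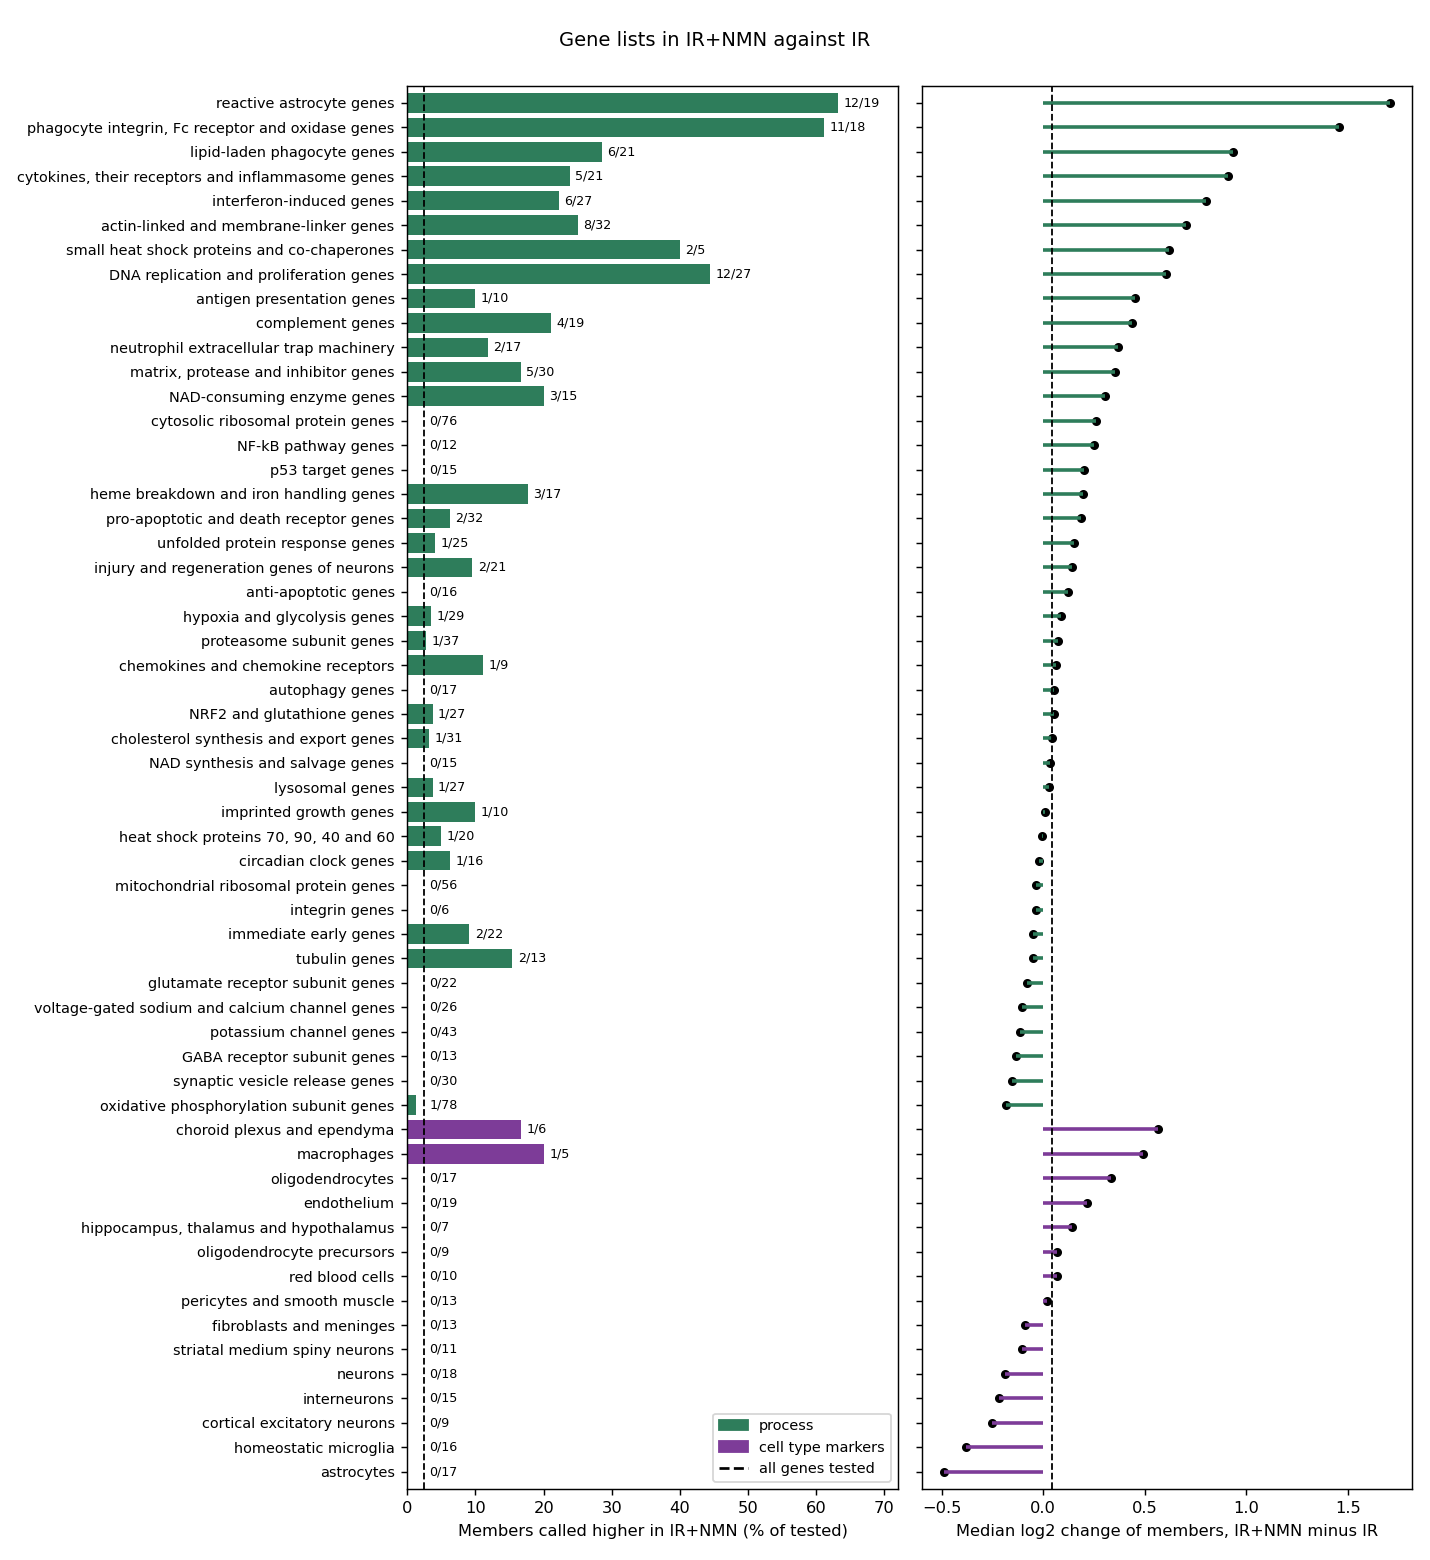
Bars give the share of tested members called higher in IR+NMN for each list with at least 5 tested genes (members called and tested beside each bar), and points give the median log2 change, with the dashed lines at the values over all genes. The reactive astrocyte list (12 of 19, median 1.71) and the phagocyte list (11 of 18, median 1.46) stand at the top, and the general astrocyte markers at the bottom (0 of 17, median -0.49).

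Of 34 listed genes of DNA replication and the cell cycle 27 were tested and 12 rose, with a median of 0.61. A positive change was found in 26 of the 27, against 58.0% of all genes. Mcm5, a subunit of the MCM helicase that opens DNA at replication origins, was at 8.64, 5.29 and 8.06 TPM in IR+NMN, against 0.968, 0.372 and 0.247 TPM in IR (2.45, SE 0.22, adjusted p = 0.00836), with Sham at 0.976 to 1.30 TPM. The IR+NMN libraries were close to each other and lay well above all others. The helicase subunits Mcm6 (6.18 to 10.3 TPM in IR+NMN, against 1.93 to 2.50 TPM in IR), Mcm2 (6.90 to 11.9 TPM, against 2.55 to 3.83 TPM) and Mcm7 (14.7 to 15.1 TPM, against 9.75 to 10.3 TPM) rose by 1.52, 1.38 and 0.54. Rrm2, the small subunit of ribonucleotide reductase, was at 4.87, 2.86 and 3.33 TPM in IR+NMN, against 1.11, 0.528 and 0.549 TPM in IR (1.43, SE 0.20, adjusted p = 0.0181). Mki67, the nuclear protein Ki-67 of dividing cells, was at 4.23, 3.71 and 4.32 TPM in IR+NMN, against 1.56, 1.09 and 0.756 TPM in IR, and 2.98 to 3.63 TPM in Sham (1.27, SE 0.17, adjusted p = 0.0181). Its Sham libraries thus lay between the other groups. Cdk1, Tk1, Ccnd1, Pcna, Ccna2 and Cdc20 were the other risers. Pcna, the sliding clamp of DNA polymerase, was at 76.7, 64.7 and 69.7 TPM in IR+NMN, against 45.4, 46.7 and 45.4 TPM in IR (0.61, SE 0.11).

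E2F transcription factors switch on MCM genes at the start of S phase, and the promoters of Mcm5 and Mcm2 are shown for the E2F motif TTTNNCGC (other strand GCGNNAAA), with matches on either strand in capitals. The sequences are RefSeq windows on build GRCr8 from 250 bases before to 50 bases after the gene start, Mcm5 at chr19:13488563-13488862 on the plus strand and Mcm2 at chr4:122918045-122918344 on the minus strand. The Mcm5 window held 3 matches, 2 of which overlap, and the Mcm2 window 2 that overlap.
Mcm5: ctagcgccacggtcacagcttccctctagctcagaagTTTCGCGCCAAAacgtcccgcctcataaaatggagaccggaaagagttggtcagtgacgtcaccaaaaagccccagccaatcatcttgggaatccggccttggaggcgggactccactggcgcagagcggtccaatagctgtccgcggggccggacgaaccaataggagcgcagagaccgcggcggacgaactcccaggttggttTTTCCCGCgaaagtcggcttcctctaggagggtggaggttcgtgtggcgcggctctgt
Mcm2: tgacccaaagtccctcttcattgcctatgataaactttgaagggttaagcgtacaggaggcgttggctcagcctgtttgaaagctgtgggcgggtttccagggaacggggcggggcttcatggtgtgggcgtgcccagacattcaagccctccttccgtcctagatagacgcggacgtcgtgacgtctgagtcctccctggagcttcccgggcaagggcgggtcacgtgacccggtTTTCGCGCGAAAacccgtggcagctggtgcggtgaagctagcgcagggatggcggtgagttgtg
RefSeq gave such a window for 8069 of the 9967 tested genes and for 183 of the 239 genes called higher. The E2F motif stood in 9.29% of the windows of genes called higher and in 8.22% of those of all tested genes, so its share was near the background. A match is a stretch of letters and not a shown binding site.

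Genes tied to the actin cytoskeleton and the cell membrane rose in 8 of 32 tested, with a median of 0.70. In 18 of the 32 all IR+NMN libraries lay above all IR libraries, against 13.7% of all genes. S100a4, a calcium-binding protein that acts on myosin, was at 290, 213 and 260 TPM in IR+NMN, against 51.9, 43.1 and 12.2 TPM in IR (3.02, SE 0.49, adjusted p = 0.0237). Anxa3, a phospholipid-binding annexin, was at 105, 103 and 95.6 TPM in IR+NMN, against 57.8, 43.2 and 38.9 TPM in IR (1.12, SE 0.15, adjusted p = 0.0181). Msn, the linker moesin between actin and the membrane, was at 33.4, 17.3 and 36.1 TPM in IR+NMN, against 8.23, 5.41 and 4.88 TPM in IR (2.02, SE 0.28, adjusted p = 0.0181). The actin-binding gene Cnn3, one of the most highly expressed genes called, was at 274, 214 and 260 TPM in IR+NMN, against 158, 120 and 115 TPM in IR (0.93, SE 0.15, adjusted p = 0.0219). Myl12a, Tpm4, Capg and Tagln2 were the other risers, with log2 changes of 1.17, 1.31, 1.86 and 1.97.

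Matrix and protease genes rose in 5 of 30 tested, with a median of 0.35. Tnc, the wound matrix protein tenascin C, was at 12.6, 7.35 and 18.1 TPM in IR+NMN, against 2.49, 2.95 and 1.64 TPM in IR (1.97, SE 0.35, adjusted p = 0.0259). Its Sham libraries, at 11.5 to 24.1 TPM, were as high as those with NMN. The metalloproteinases Mmp19 and Adamts1 rose by 1.5 and 2.02, and Timp1 is given above. None of the integrin subunit genes outside leukocytes passed, 0 of 6 tested by limma and 1 higher at an unadjusted p under 0.05.

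Among the heat shock genes 3 rose. Of 7 listed small heat shock proteins and co-chaperones 5 were tested, and Hspb1 and Hspb8 rose. Hspb8, a chaperone partner of Bag3 in the removal of damaged proteins, was at 44.0, 32.8 and 52.1 TPM in IR+NMN, against 21.3, 19.6 and 20.4 TPM in IR, and 9.24 to 11.5 TPM in Sham (1.01, SE 0.17, adjusted p = 0.025). Cryab, the alpha B crystallin of the same family, was at 110, 149 and 155 TPM in IR+NMN and 140.1, 90.02 and 82.7 TPM in IR, with overlap. Of 20 large heat shock proteins tested Hspa2 alone rose (0.87, SE 0.16), and their median was -0.01. Hsp90aa1, the inducible cytosolic HSP90, was at 1828 to 1980 TPM in IR+NMN and 2043 to 2341 TPM in IR, each above the 1004 to 1165 TPM of Sham.

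The promoter windows of Hspb1 and Hspb8, the small heat shock genes that rose, are shown with the heat shock element GAANNTTC, which reads the same on the other strand, in capitals. Heat shock factor binds such repeats. They are again RefSeq windows on GRCr8, Hspb1 at chr12:26432252-26432551 on the minus strand and Hspb8 at chr12:45837058-45837357 on the plus strand. The matches begin 129 and 109 bases before the start of Hspb1 and 23 bases before that of Hspb8.
Hspb1: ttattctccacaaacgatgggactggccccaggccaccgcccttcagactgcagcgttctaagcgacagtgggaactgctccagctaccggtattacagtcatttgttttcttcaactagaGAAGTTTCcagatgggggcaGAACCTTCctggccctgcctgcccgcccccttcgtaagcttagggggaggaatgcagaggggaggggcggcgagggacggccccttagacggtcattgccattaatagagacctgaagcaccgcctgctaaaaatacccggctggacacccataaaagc
Hspb8: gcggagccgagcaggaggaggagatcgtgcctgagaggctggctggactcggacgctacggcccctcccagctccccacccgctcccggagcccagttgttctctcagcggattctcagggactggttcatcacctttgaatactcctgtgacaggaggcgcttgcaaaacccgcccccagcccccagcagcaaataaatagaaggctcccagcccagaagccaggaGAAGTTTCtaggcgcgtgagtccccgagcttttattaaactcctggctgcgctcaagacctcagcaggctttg
This motif stood in 10.4% of the windows of genes called higher and in 5.58% of those of all tested genes. The other motifs searched on both strands were AP-1 (TGANTCA, 8.20% and 4.88%), STAT (TTCNNNGAA, 10.9% and 6.68%) and the PU.1 and ETS motif (GAGGAAGT, 6.01% and 2.44%), with the genes called higher first in each pair. These shares are descriptions without a test.

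Hmox1, the heme-degrading enzyme heme oxygenase 1, was at 67.4, 17.7 and 118 TPM in IR+NMN, against 6.495, 5.84 and 5.65 TPM in IR (2.93, SE 0.54, adjusted p = 0.0295). It was 1 of 3 risers among 17 heme and iron genes tested, with Cp and Lcn2, and the 1 riser among 27 NRF2 and glutathione genes, whose median was 0.05. Of 25 unfolded protein response genes 1 rose, the chaperone gene Creld2 (0.70, SE 0.13), and their median was 0.15. Of 22 immediate early genes Fos and Atf3 rose, 10 had a positive change and the median was -0.05, with 6 higher and 3 lower at an unadjusted p under 0.05. Fos, the transcription factor that pairs with JUN in AP-1, was at 15.3, 7.31 and 16.7 TPM in IR+NMN, against 3.12, 1.85 and 1.28 TPM in IR, and 6.30 to 10.2 TPM in Sham (2.16, SE 0.33, adjusted p = 0.021). Atf3, a stress factor of injured neurons, was at 3.05, 2.12 and 7.55 TPM in IR+NMN, against 0.740, 0.275 and 0.339 TPM in IR (1.73, SE 0.37, adjusted p = 0.0496). Gadd45g, a growth arrest gene in the list of neuronal injury, was at 36.0, 21.2 and 39.4 TPM in IR+NMN, against 9.80, 9.36 and 6.999 TPM in IR (1.74, SE 0.23, adjusted p = 0.0181). The cold-induced RNA-binding gene Rbm3 was at 33.0, 25.5 and 30.6 TPM in IR+NMN, against 15.9, 18.6 and 14.1 TPM in IR (0.84, SE 0.15, adjusted p = 0.0259), and stood at 91.0 to 114 TPM in Sham.

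Of the processes in the series' title, 2 pro-apoptotic genes and 2 trap genes rose. Of 41 listed pro-apoptotic and death receptor genes 32 were tested, 2 rose (6.25%, against 2.4% of all genes) and 0 fell, with a median of 0.18. At an unadjusted p under 0.05, 8 of the 32 were higher and 0 lower, against 10.9% and 2.55% of all genes. Bak1, which opens the outer membrane of mitochondria, was at 18.9, 12.6 and 18.3 TPM in IR+NMN, against 9.55, 7.48 and 7.03 TPM in IR (0.95, SE 0.18, adjusted p = 0.0299). The death receptor gene Fas was at 1.87, 2.04 and 4.06 TPM in IR+NMN, against 0.798, 0.623 and 0.463 TPM in IR (1.12, SE 0.23, adjusted p = 0.0388). Tnfrsf1a, the main TNF receptor, was at 19.9, 17.9 and 24.5 TPM in IR+NMN, against 13.3, 5.95 and 4.89 TPM in IR (adjusted p = 0.0534). Bax, the partner of Bak1, was at 61.1 to 69.7 TPM in IR+NMN and 52.3 to 65.2 TPM in IR. Limma called 0 of 16 anti-apoptotic genes, with 4 higher and 1 lower at an unadjusted p under 0.05, and 0 of 15 p53 targets, with 4 higher and 0 lower. The survival gene Bcl2l1 was at 47.5 to 54.5 TPM in IR+NMN and 39.1 to 42.6 TPM in IR without passing.

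Of 30 listed genes of the trap machinery 17 were tested, 2 rose (11.8%, against 2.4% of all genes) and 0 fell, with a median of 0.37. With the unadjusted p under 0.05, 8 were higher and 0 lower, against 10.9% and 2.55% of all genes. The 2 risers were Rac2 and Lcn2, which phagocytes other than neutrophils and reactive astrocytes also express. Padi4, the enzyme that citrullinates histones in traps, did not pass the filter and stood at 0.0252, 0.0369 and 0 TPM in IR+NMN and was listed at 0 in all 3 IR libraries. Hmgb1, a chromatin protein that traps carry, was at 114 to 133 TPM in IR+NMN and 91.0 to 104 TPM in IR. No row of the table carried the symbol Mpo, Elane, Ctsg, S100a8 or Sirt1, so these genes could not be analysed here.

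NAD is made from NMN, and no gene of its synthesis or salvage passed. Of 22 listed genes 15 were tested and limma called 0, also at an unadjusted p under 0.05, with a median of 0.03. With 2.4% of all genes called higher, 0 of 15 called does not set this list apart. Nampt, the enzyme that makes NMN from nicotinamide, was at 20.8, 29.4 and 26.3 TPM in IR+NMN and 25.9, 18.4 and 20.9 TPM in IR. Nmnat1, Nmnat2 and Nmnat3, which turn NMN into NAD in the nucleus, at the Golgi and in mitochondria, overlapped between the groups, with Nmnat2 at 46.2 to 86.6 TPM in IR+NMN and 49.9 to 86.2 TPM in IR. Enzymes that consume NAD rose in 3 of 15 tested, with a median of 0.30. Cd38, the main NAD-degrading ectoenzyme, was at 32.0, 21.3 and 29.3 TPM in IR+NMN, against 15.2, 8.14 and 10.2 TPM in IR (1.25, SE 0.25, adjusted p = 0.0384). Parp3, which acts in DNA repair, was at 15.7, 10.8 and 13.6 TPM in IR+NMN, against 5.04, 4.30 and 2.78 TPM in IR (1.52, SE 0.22, adjusted p = 0.0188). Parp9, an interferon-linked member without strong activity of its own, rose by 0.94 (SE 0.18). Parp1, the most abundant nuclear PARP, was not called, at 43.1 to 52.9 TPM in IR+NMN and 31.8 to 40.9 TPM in IR.

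Neuronal genes were not called, but fewer of them had a positive change than of all genes. Limma called 0 of 18 pan-neuronal markers (0 higher and 2 lower at an unadjusted p under 0.05, median -0.19), 0 of 9 cortical excitatory markers (0 and 0, median -0.25), 0 of 11 striatal markers (0 and 2, median -0.10) and 0 of 15 interneuron markers (0 and 3, median -0.22). The same held for 22 glutamate receptor, 13 GABA receptor, 30 vesicle release, 26 sodium and calcium channel and 43 potassium channel genes, with 0 called, 0 higher and 0, 2, 1, 0 and 2 lower at an unadjusted p under 0.05 and medians between -0.15 and -0.08. Positive changes were found in 3 of 18 pan-neuronal, 3 of 9 cortical excitatory, 4 of 11 striatal and 1 of 15 interneuron markers, against 58.0% of all genes. In the order above, the receptor, vesicle release and channel lists had 6 of 22, 3 of 13, 3 of 30, 6 of 26 and 10 of 43. Summed over the 18 pan-neuronal markers the level was 8591, 12680 and 9893 TPM in IR+NMN, against 14740, 10010 and 11060 TPM in IR. IR+NMN 2 and IR 1, the libraries most like each other, were the highest of their groups. Rbfox3, the nuclear antigen NeuN of neurons, was at 61.8, 140 and 83.5 TPM in IR+NMN and 127, 86.8 and 79.2 TPM in IR, and Ppp1r1b, the striatal phosphoprotein DARPP-32, at 12.6, 55.7 and 24.8 TPM in IR+NMN and 67.6, 68.3 and 54.0 TPM in IR. The part of tissue make-up in the other results was not tested.

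All 17 tested oligodendrocyte markers had a positive change, against 58.0% of all genes, with a median of 0.33. Limma called 0 of them, also at an unadjusted p under 0.05. Their summed level was 3836, 9518 and 9391 TPM in IR+NMN, against 8095, 4518 and 4340 TPM in IR, so the groups overlapped. Limma called 0 of 19 endothelial (3 higher and 3 lower at an unadjusted p under 0.05), 0 of 13 pericyte and smooth muscle (1 and 0) and 0 of 13 fibroblast and meningeal markers (1 and 0), and 0 of 10 red cell markers (0 and 0). Hemoglobin transcripts summed to 824, 1010 and 920 TPM in IR+NMN, 901, 808 and 731 TPM in IR and 4077 to 9332 TPM in Sham. Ttr, the transthyretin of the choroid plexus, rose in 1 of 6 tested choroid plexus and ependymal markers, at 3.56, 3.37 and 5.85 TPM in IR+NMN, against 0.690, 0.720 and 0.713 TPM in IR (1.59, SE 0.22, adjusted p = 0.0181). It stood at 23.6 to 38.4 TPM in Sham.

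Few genes of energy metabolism or translation passed, as was so over all genes, of which 2.4% were called higher and 0.0602% lower. By their calls these lists are thus near the background. By the signs of change the oxidative phosphorylation and cytosolic ribosomal lists were not, since 58.0% of all genes had a positive change. Of 78 nuclear subunits of oxidative phosphorylation 1 rose, Cox6a2, and 6 had a positive change, with a median of -0.18. Of 76 cytosolic ribosomal protein genes limma called 0, and 70 had a positive change. At an unadjusted p under 0.05, 11 were higher and 0 lower, and the median was 0.26. Of 56 mitochondrial ribosomal protein genes limma called 0, with 0 higher and 0 lower at that p, 23 positive changes and a median of -0.03. Of 29 hypoxia and glycolysis genes the lactate exporter Slc16a3 alone rose, at 5.27, 3.06 and 7.64 TPM in IR+NMN, against 1.46, 1.06 and 0.848 TPM in IR (1.52, SE 0.26). Of 31 cholesterol genes Ch25h alone rose, an enzyme that makes 25-hydroxycholesterol in activated phagocytes, at 21.3, 4.19 and 20.1 TPM in IR+NMN, against 1.74, 1.23 and 1.38 TPM in IR (2.46, SE 0.50, adjusted p = 0.0417). Among 16 clock genes the repressor Nfil3 rose by 0.58 (SE 0.12, adjusted p = 0.0474), and among 17 autophagy genes limma called 0, also at an unadjusted p under 0.05.

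The 6 genes that fell share no list, and 2 of them encode enzymes of amino acid breakdown. Gpt, the alanine aminotransferase that converts alanine and pyruvate into each other, was at 2.18, 3.52 and 1.92 TPM in IR+NMN, against 16.6, 17.7 and 14.1 TPM in IR, and 12.4 to 23.1 TPM in Sham (-2.30, SE 0.24, adjusted p = 0.0126). The groups were far apart, and it is the 1 gene of the 245 that also passed in the fit to 6 libraries (adjusted p = 0.0455). A row of it was near 0 in one group and present in the other. The values given are sums over its rows. A shift of reads to or from rows without its symbol cannot be told apart from a change of the gene. Hpd, which oxidises a breakdown product of tyrosine, was at 0.302, 1.16 and 0 TPM in IR+NMN, against 2.25, 2.84 and 4.46 TPM in IR (-1.53, SE 0.31, adjusted p = 0.0398). Car6, a carbonic anhydrase and the most abundant of the 6, was at 162, 160 and 148 TPM in IR+NMN, against 222, 240 and 230 TPM in IR, and 146 to 163 TPM in Sham (-0.55, SE 0.10, adjusted p = 0.0257). Luzp2 (3.03 to 3.94 TPM in IR+NMN, against 5.34 to 7.71 TPM in IR) and the membrane protein Tmem255b (8.94 to 11.3 TPM, against 15.3 to 17.2 TPM) fell by 0.75 and 0.64 on the log2 scale. Siglec5 is described above.

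Set beside the Sham libraries, the genes called higher were mostly above the baseline with NMN and near or below it without. These genes were chosen for being higher in IR+NMN than in IR, which by itself favours such a pattern. The counts against Sham were not made over all genes, so they are descriptions only. Of the 239 genes, 204 had all 3 IR+NMN libraries above all 3 Sham libraries. The IR mean lay above the range of the Sham libraries in 47, within it in 79 and below it in 113. Over the 239 genes the median distance from the IR mean was 1.32, 0.90 and 1.29 in IR+NMN 1, 2 and 3, against 0.20, -0.07 and -0.13 in IR 1, 2 and 3, and 0.15, 0.18 and 0.23 in Sham 1, 2 and 3, on the log2(TPM + 1) scale. Spp1 and Ccl2 were low in the libraries labelled IR, at no more than 3.68 and 1.24 TPM, and high in those labelled IR+NMN. Their means were 1.85 and 0.4385 TPM in IR, against 1.025 and 0.098 TPM in Sham. Gfap (4357 ± 259 TPM in IR+NMN, 1549 ± 1007 TPM in IR and 564 ± 212 TPM in Sham) and Hspb1 (551 ± 308, 25.8 ± 21.8 and 5.43 ± 2.85 TPM, SD, n = 3 each) also averaged more in IR than in Sham. In both of these genes IR 3 lay within the range of the Sham libraries, at 666 and 7.80 TPM. Groups were taken from the labels as deposited, and whether the labels of IR+NMN and IR fit their libraries was not tested. An exchange of all IR+NMN labels with all IR labels would turn the direction of each change. An exchange of single libraries would alter its size. IR+NMN 2 was the lowest IR+NMN library in 197 of the 239 genes, and IR 1 the highest IR library in 188.

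**Figure D5:**
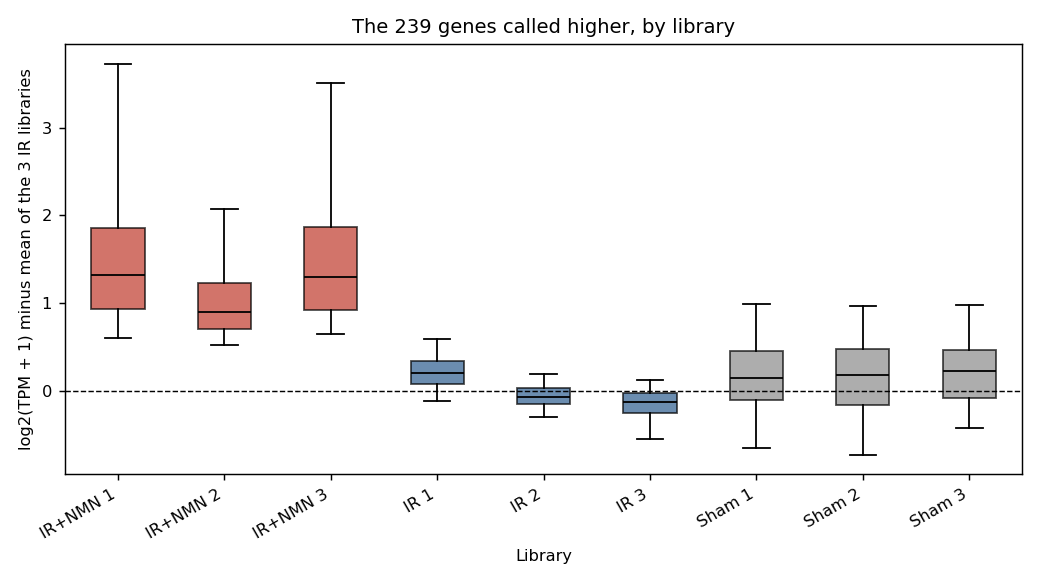
Boxes give, for each of the 9 libraries, log2(TPM + 1) minus the mean of the 3 IR libraries over the 239 genes called higher, with the median as a line, the box from the 25th to the 75th percentile and whiskers from the 5th to the 95th. The medians are 1.32, 0.90 and 1.29 in IR+NMN, -0.13 to 0.20 in IR and 0.15 to 0.23 in Sham, and since these genes were chosen for the difference it is shown as a description.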

How the data were processed

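RNA sequencing was done on 9 rat brain libraries, amplified from total RNA by Smart-Seq2 with an RNA integrity number of at least 5.8, per the labels' protocols. The deposited values were TPM, normalized by the authors, 1 column per library. STAR, Cufflinks and hg38, a human build, are named for these rat samples, per the submitters' processing notes. For versions, annotation and strandedness nothing is given in the sources used here. The table had 131003 rows, of which 27683 carried a gene symbol, 40459 a dash and 62861 a blank. Symbols accounted for 72.7% to 78.7% of a library's TPM, and the remainder is in no result. In 16 tested genes a row stood at or below 0.1 TPM in each library of IR+NMN or IR and at or above 1 TPM in each of the other, and 3 of the called genes were among them (Fxyd2, Gpt and Serpina3n). TPM keeps no depth, so depth is unknown and no counting interval is given.

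Rows were summed per symbol, transformed as log2(TPM + 1) and fitted with limma 3.58.1 (R 4.3.3), with 1 mean per group over all 9 libraries, an intensity trend and robust moderation. A fold change on this scale understates that of weakly expressed genes. The contrast was IR+NMN minus IR, two-sided, with Benjamini-Hochberg adjustment over 9967 genes. All p-values are from this fit unless another is named. The fit was tested on simulated data. Members and gene lists were chosen with earlier results of these data known, so lists have counts and medians but no test of their own. Named genes were up to 12 with the largest change in each direction past the threshold, with groups apart and a higher group of at least 5 TPM, or the 5 with the smallest p where fewer than 5 passed. Up to 4 members of each list with the smallest p, the other called members of a list, genes of the title, the first 3 markers of each cell type and the 5 called genes with the highest mean were also named. Some genes that this rule named are not reported here. Promoter genes, Apoe, Ctsb, Cryab, Tuba8, Hsp90aa1 and the genes in no list were chosen after their values were seen. The alternatives tried were other pseudocounts, filters and scalings, 1 row per gene, 6 libraries, no trend, a ribosomal covariate, a replicate block, and fits without libraries.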

Additional observations from a re-analysis of the deposited data

How the results depend on the processing

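The counts are given as higher, lower and either direction. The reported counts were 239, 6 and 245. Counts within 1.5 times of these in total came with a pseudocount of 0.1 TPM (222, 5 and 227) or 5 TPM (229, 7 and 236), no filter on low values (245, 6 and 251), a mean of at least 5 TPM (167, 4 and 171), the highest row per gene (188, 4 and 192) and no intensity trend (270, 7 and 277). Fewer calls came with quantile normalization (48, 2 and 50), median-of-ratios scaling (72, 3 and 75) and the 6 libraries alone (1, 1 and 2). More came with a covariate for the share of ribosomal protein genes (419, 54 and 473) and without IR 1 and IR+NMN 2 together (431, 111 and 542). These 2 settings lowered the share of higher genes among the calls to 88.6% and 79.5%, and leaving out IR+NMN 2 alone to 74%. Leaving out 1 library at a time gave 0 to 365 higher, 0 to 128 lower and 0 to 493 in either direction. Scaling moved the median change of all genes to -0.04 (quantile) and -0.03 (median of ratios). Of the 239 genes, 48 remained called with quantile and 72 with median-of-ratios scaling. The cause of these differences was not tested. Each of the 239 kept a positive sign in every setting in which it was tested, and no sign turned among the 6 lower genes or the 10 uncalled ones near the threshold that were refitted. The groups did not overlap in any of the 239 or the 6. For them, other pseudocounts or filters, no trend, the block or fewer libraries could not turn a sign. Only the scalings, the highest row per gene and the ribosomal covariate could have done so. Deviations from the group means of same-numbered IR+NMN and IR libraries correlated at -0.571, -0.196 and -0.158, and those of differently numbered ones at -0.383 to 0.517. Deviations within groups of 3 depend on each other, so these values cannot decide whether a replicate number marks libraries that belong together. With a replicate block the counts were 32, 1 and 33, and 32 of the 239 remained. Depth is unknown, so what low TPM values can show is not known. The 3 libraries a group limit precision.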

Other observations

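Of the 239 genes called higher, 153 stood in none of the lists. Those named here were chosen after their values were seen. Spi1, the transcription factor PU.1 of myeloid cells, was at 18.7, 12.9 and 17.1 TPM in IR+NMN, against 9.94, 6.28 and 6.30 TPM in IR (log2 change 1.03, SE 0.19, adjusted p = 0.0299 by limma). Csf2rb, the shared receptor subunit for GM-CSF, IL-3 and IL-5, was at 22.9, 11.6 and 28.0 TPM in IR+NMN, against 5.19, 0.524 and 0.502 TPM in IR (3.09, SE 0.53, adjusted p = 0.025). P2ry6, the UDP receptor that starts phagocytosis in microglia, was at 8.13, 6.13 and 7.44 TPM in IR+NMN, against 2.60, 2.53 and 2.48 TPM in IR (1.21, SE 0.14, adjusted p = 0.014). The spread within each group was small. The exchange factor Vav1, the kinases Fgr and Btk, the phosphatase Ptpn6, the platelet and leukocyte protein Plek and the Toll-like receptor adaptor Myd88 also rose, by 1.04, 1.63, 0.85, 1.33, 1.86 and 0.72.

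Tspo, the mitochondrial protein imaged as a marker of brain inflammation, was at 89.8, 31.3 and 69.1 TPM in IR+NMN, against 9.61, 6.36 and 5.61 TPM in IR (2.88, SE 0.39, adjusted p = 0.0181). Pdpn, the membrane glycoprotein podoplanin, was at 86.9, 33.0 and 90.9 TPM in IR+NMN, against 12.9, 8.75 and 7.17 TPM in IR (2.65, SE 0.36, adjusted p = 0.0181). In both genes IR+NMN 2 was the lowest of its group and lay above all IR libraries. Chi3l1, a secreted chitinase-like protein of reactive astrocytes, was at 162, 179 and 217 TPM in IR+NMN, against 108, 63.8 and 53.1 TPM in IR (1.36, SE 0.27, adjusted p = 0.0375). Hbegf, a growth factor that binds the EGF receptor, was at 13.2, 5.40 and 18.0 TPM in IR+NMN, against 2.10, 1.77 and 2.23 TPM in IR (1.99, SE 0.35, adjusted p = 0.025). Serpinh1, the collagen chaperone HSP47, was at 140, 108 and 180 TPM in IR+NMN, against 66.3, 47.4 and 56.4 TPM in IR (1.30, SE 0.20, adjusted p = 0.0216). The replication genes Gins1, Lig1 and Uhrf1 rose by 1.16, 0.76 and 0.97, and Myc, a transcription factor of growth, by 1.09. Ret, a receptor for neurotrophic factors of the GDNF family, was at 8.46, 8.41 and 13.8 TPM in IR+NMN, against 5.83, 3.53 and 3.58 TPM in IR, and 1.32 to 1.81 TPM in Sham (1.07, SE 0.23, adjusted p = 0.0496). All these calls were lost without IR+NMN 1, IR+NMN 3, IR 2 or IR 3 and in the fit to 6 libraries.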
